A study of Mus musculus with 16 samples.

Results

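Ventricles of control mouse embryos from a pair of conditional Atf4 lines were compared in 8 RNA-seq libraries, 4 from each line, out of the 16 libraries of the study. Atf4 encodes a transcription factor of the stress response to amino acid shortage and misfolded protein. In one line exons 2 and 3 of Atf4 are flanked by loxP sites (the exon 2-3 line), and in the other exon 2 alone (the exon 2 line). In the conditional knockouts (cKO) of the study the Xmlc2-Cre transgene, which is active in cardiomyocytes, removes the flanked part. The 8 libraries were chosen by their labels, which mark them as controls of one line or the other. Each was made from ventricular tissue dissected from embryos at E11.5, with 4 biological replicates per genotype stated for the study, so the tests below measure the spread between embryos as labelled. The genotype label reads C57BL/6 WT for controls and cKO alike, and the labels do not say whether a control embryo had floxed Atf4 or Cre. The labels place the whole exon 2-3 line in batch 1 and the whole exon 2 line in batch 2. Line and batch therefore cannot be told apart in any value below, and no difference between these groups is attributed to an allele.

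The mouse ventricle at this stage is a beating muscle wall with a compact outer layer and inner trabeculae. It is lined by endocardium and covered by epicardium, which begins to seed the wall with fibroblast and mural precursors. Near the atrioventricular canal the endocardium forms cushions of mesenchyme that become valves. The embryonic myocardium uses a fetal set of sarcomere proteins, among them slow skeletal troponin I and an atrial essential light chain, and nucleated primitive red cells fill the chambers. TPM divides reads by transcript length, so levels of different genes can be set side by side on this scale.

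The values analysed were the deposited TPM of 5921 genes on chromosomes 1, 10 and 11 (the latter as far as base 106501211), which held between 15.2% and 16.8% of each control library's total. Between 4510 and 4873 of these genes had a value above 0 in a library, and 3837 had one in all 8. Control libraries of one line correlated with Pearson's r of 0.987 to 0.992 across the 2620 genes tested on the log2(TPM + 1) scale, and libraries of different lines with 0.947 to 0.968. Atf4 itself lies outside these regions and was not analysed here.

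The 8 libraries shared a programme of heart muscle, respiration and protein synthesis. The 20 genes with the highest mean TPM held between 28.7% and 32.1% of the TPM analysed in each library. They included 4 sarcomere genes (Myl4, Tnnt2, Myl7 and Tnni1), the ATP synthase subunit Atp5b, the ribosomal protein genes Rpl41, Rpl7, Rps26, Rpl26 and Rps15, the embryonic and adult alpha globins Hba-x and Hba-a1, the translation factor Eef2 and the ubiquitin gene Ubb. Myl4, an essential myosin light chain of embryonic and atrial muscle (chromosome 11, 104546017 to 104587215, GRCm38), measured 5769, 5411, 5481 and 5511 TPM in the exon 2-3 controls and 4769, 5152, 4493 and 4530.4 TPM in the exon 2 controls. It was the most abundant of the sarcomere genes in each of the 8 libraries. Tnnt2, cardiac troponin T, which ties the troponin complex to the thin filament, measured 4966, 4863, 4419 and 5167 TPM in the exon 2-3 controls and 2552, 3165, 2388 and 3630.2 TPM in the exon 2 controls. Tnni1, slow skeletal troponin I, measured 3195, 2772, 3012 and 3252 TPM in the exon 2-3 controls and 1720.4, 2349, 2174 and 1586 TPM in the exon 2 controls. Atp5b, the catalytic beta subunit of ATP synthase, measured 3407, 3148, 2913 and 3376 TPM in the exon 2-3 controls and 2742, 2670.0, 2693 and 2557 TPM in the exon 2 controls. These 4 genes were abundant in every library, and for each the lowest exon 2-3 library lay above the highest exon 2 library.

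Some other genes expressed in the ventricle differed little or did not pass the test. Phospholamban (Pln), the brake on the calcium pump of the sarcoplasmic reticulum, measured 683, 648, 579.5 and 583 TPM in the exon 2-3 controls and 639, 617, 702 and 667 TPM in the exon 2 controls. The ranges overlapped, and the difference of -0.08 on the log2 scale did not pass the test (limma, adjusted p 0.402). Hand1, a transcription factor of the developing left ventricle, averaged 62.7 ± 7.25 TPM in the exon 2-3 controls and 67.6 ± 7.10 TPM in the exon 2 controls (SD, n = 4 each; adjusted p 0.354). Gja1, the gap junction protein connexin 43, averaged 282 ± 27.3 TPM in the exon 2-3 controls and 298 ± 10.8 TPM in the exon 2 controls (adjusted p 0.337). Des, the muscle intermediate filament desmin, averaged 559 ± 42.0 TPM in the exon 2-3 controls and 591 ± 48.2 TPM in the exon 2 controls (adjusted p 0.362). Hey2, a Notch effector that marks the compact ventricular wall, measured 80.7, 70.2, 63.0 and 80.3 TPM in the exon 2-3 controls and 82.5, 89.4, 91.6 and 92.8 TPM in the exon 2 controls, and it was lower in the exon 2-3 controls without overlap (log2 difference -0.28, adjusted p 0.00432).

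The genes with the smallest spread over the 8 control libraries, at a mean of at least 10 TPM, were Zwint, Ndufa10, Sdhc, Cfap36, Katna1, Ormdl1, Mtarc2, Tiprl, Cox11 and the pseudogene Ube2d-ps. This choice by small spread also fixes a small difference between the lines, which is given only as a description. Ndufa10, a subunit of respiratory complex I, measured 350.3, 334, 320.2 and 355 TPM in the exon 2-3 controls and 346, 353, 326 and 334 TPM in the exon 2 controls. Sdhc, a membrane anchor of succinate dehydrogenase, measured 321, 306, 309 and 323 TPM in the exon 2-3 controls and 332, 311, 326 and 327 TPM in the exon 2 controls. Zwint, a kinetochore protein, measured 211, 217, 205 and 218 TPM in the exon 2-3 controls and 212, 209.8, 207 and 197 TPM in the exon 2 controls. A wider count of like genes used the 95% interval of the line difference. That interval lay within 0.5 of 0 on the log2 scale for 1399 of the 2620 genes tested (53.4%), of which 434 still passed the test for a difference and 965 did not. A further 278 genes neither passed the test nor had an interval that narrow, so for them a difference of that size was not resolved.

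Markers of tissues that should be absent were at or near 0 among the genes analysed. The highest mean over the 8 libraries was 0.530 TPM for 5 neuronal markers (Kif5a) and 0.151 TPM for 6 skeletal muscle markers (Myog). For 5 liver markers it was 0.111 TPM (Cps1), and for 3 leukocyte markers 0.252 TPM (Ptprc). Of the single values, 19 of 40 were 0 for the liver markers and 7 of 48 for the skeletal muscle markers. Some genes kept on the same lists for a wider use were present: Dlg4, a synaptic scaffold that other tissues also express, averaged 10.3 ± 0.893 TPM in the exon 2-3 controls and 11.8 ± 2.65 TPM in the exon 2 controls, and Myl1, a fast skeletal light chain, averaged 314 ± 24.6 TPM in the exon 2-3 controls and 283 ± 53.7 TPM in the exon 2 controls. The monocyte and macrophage gene Lyz2 averaged 80.3 ± 2.24 TPM in the exon 2-3 controls and 69.6 ± 4.70 TPM in the exon 2 controls, and the lysosomal macrophage protein Cd68 averaged 3.54 ± 0.985 TPM in the exon 2-3 controls and 5.92 ± 0.687 TPM in the exon 2 controls. Erythroid transcripts were abundant and varied within both lines. Hba-x, the embryonic alpha-like globin, measured 1412, 1789, 1422 and 1353 TPM in the exon 2-3 controls and 903, 829.8, 1487 and 1166 TPM in the exon 2 controls. Hba-a1, the adult-type alpha globin, measured 1023, 1517, 1221 and 891 TPM in the exon 2-3 controls and 817, 734, 1834 and 1189 TPM in the exon 2 controls. The summed TPM of the 6 erythroid genes tested ranged over 2999 to 4560.4 TPM in the exon 2-3 controls and 2129.8 to 4714 TPM in the exon 2 controls, so the groups overlapped, and none of the 6 passed the test in limma (Hba-x adjusted p 0.418, Hba-a1 adjusted p 0.889). None of the 6 had an unadjusted p under 0.05 either, against 1511 of all 2620 genes.

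The comparison of the control groups asked how far the lines differed among their controls. All differences are exon 2-3 minus exon 2 on the log2(TPM + 1) scale, tested with limma and adjusted by the Benjamini-Hochberg method over 2620 genes with a mean of at least 1 TPM over the 16 libraries. At an adjusted p under 0.05, 1377 genes differed (52.6%), 378 higher in the exon 2-3 controls (14.4%) and 999 lower (38.1%). The control groups did not overlap for 1192 genes (45.5%). Most differences were small: 135 of the called genes (5.15% of those tested) differed by at least 1, 81 higher and 54 lower. The median over all genes was -0.14. Single genes had a median SD of 0.128 within a control group, which describes their own spread and not that of the median over all genes. The balance of directions moved with the scaling. Of the genes called, 27.5% were higher in the values as deposited, 57.7% of 1263 after centring each library on its median, 39.9% of 1328 after quantile normalisation, and 23.5% of 1543 after rescaling the rows analysed to a common sum. Directions below are those of the deposited TPM, and they are to be read against the shift of -0.14 shared by the median gene.

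**Figure D1:**
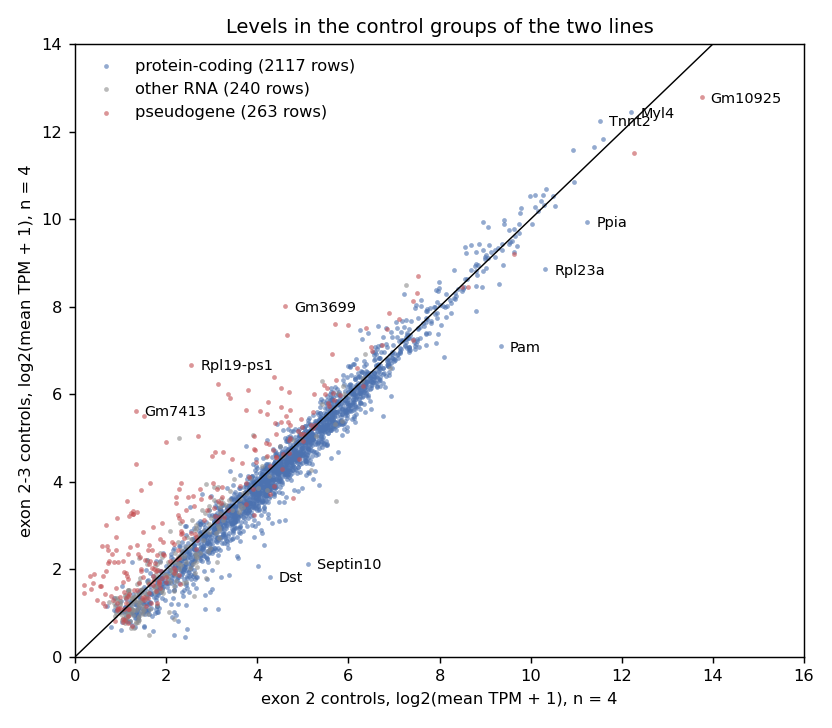
Mean level of each of the 2620 genes tested in the exon 2 controls (x axis) and the exon 2-3 controls (y axis), both as log2(mean TPM + 1), n = 4 each, with the line of equality. Blue points are protein-coding, grey other RNA and red pseudogene rows; many red points lie far above the line, Rpl19-ps1 and Gm7413 among them, and Septin10, Pam, Dst, Ppia and Rpl23a lie far below it.

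The cKO libraries of both lines gave a second reading of the line difference. Their values do not enter the control difference itself, but the batches were the same, and the filter and the residual spread of both tests came from all 16 libraries. Fitted on the 8 control libraries alone, 1303 genes differed between the controls. Between the cKO groups, 1229 genes differed (46.9%), and the median over all genes was -0.09. Both comparisons called 949 genes in the same direction, which is 68.9% of the control calls and 77.2% of the cKO calls, and 15 in opposite directions. Of the 135 genes that differed by at least 1 between the controls, 134 had the same sign between the cKO groups and 120 (88.9%) also passed the test there. Across the genes tested, which are not independent replicates, the differences correlated with Pearson's r of 0.854 and Spearman's rho of 0.756. Septin10 and Pam, described below, kept their size in the cKO libraries (-2.98 and -2.41, against -2.995 and -2.26 in the controls). The p53 target Ccng1, which regulates the cell cycle arrest response, did not: its line difference was -0.35 in the controls and 1.11 in the cKO libraries. It measured 97.9, 94.1, 93.8 and 95.7 TPM in the exon 2-3 controls and 118, 116, 129 and 125 TPM in the exon 2 controls.

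**Figure D2:**
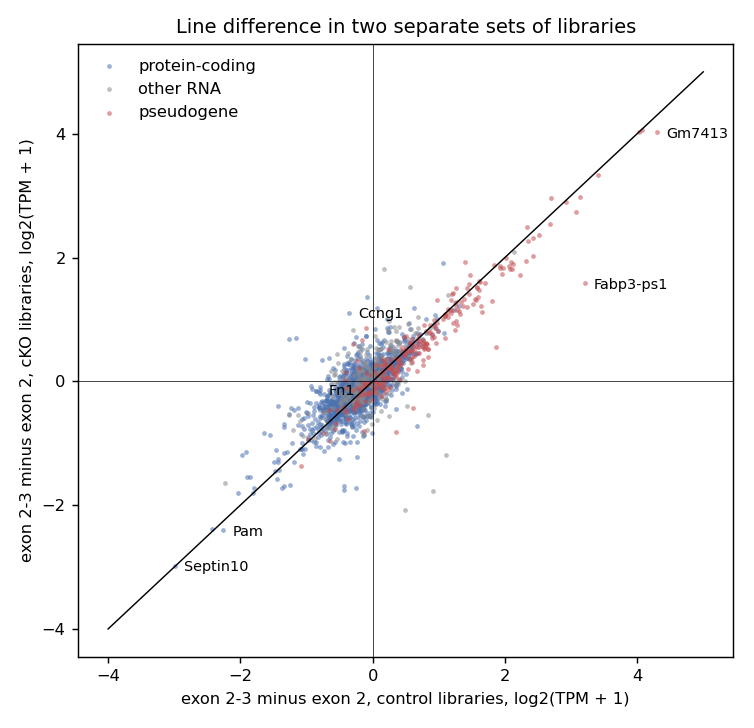
Line difference (exon 2-3 minus exon 2, log2(TPM + 1) scale) of each gene tested in the 8 control libraries (x axis) and in the 8 cKO libraries (y axis), coloured by gene class, with the line of equality. The 949 genes called in the same direction in both spread along the line, from Septin10 to Gm7413, while Ccng1 lies above it.

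The difference followed transcript length. Among 2112 protein-coding genes with a known length (the longest GENCODE M21 transcript), Spearman's rho between length and the line difference was -0.587 across genes, and -0.523 in the cKO libraries. Between the difference and GC content it was 0.006. Of 88 coding genes with transcripts shorter than 1000 bases, 50 were higher in the exon 2-3 controls and 4 lower, with a median of 0.33. Of 333 genes with transcripts of 6000 bases or more, 2 were higher and 279 lower, with a median of -0.42. The medians fell in each length class between (0.03, -0.08, -0.18 and -0.29). When each library's trend on length was removed, a step chosen after the data had been seen, 944 of 2522 genes with a length passed the test (37.4%), 473 higher (18.8%) and 471 lower (18.7%). Of these, 621 had been called in the same direction without the step. A trend of the line and a trend of the batch cannot be told apart, and length-corrected counts are given below beside the main gene groups.

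**Figure D3:**
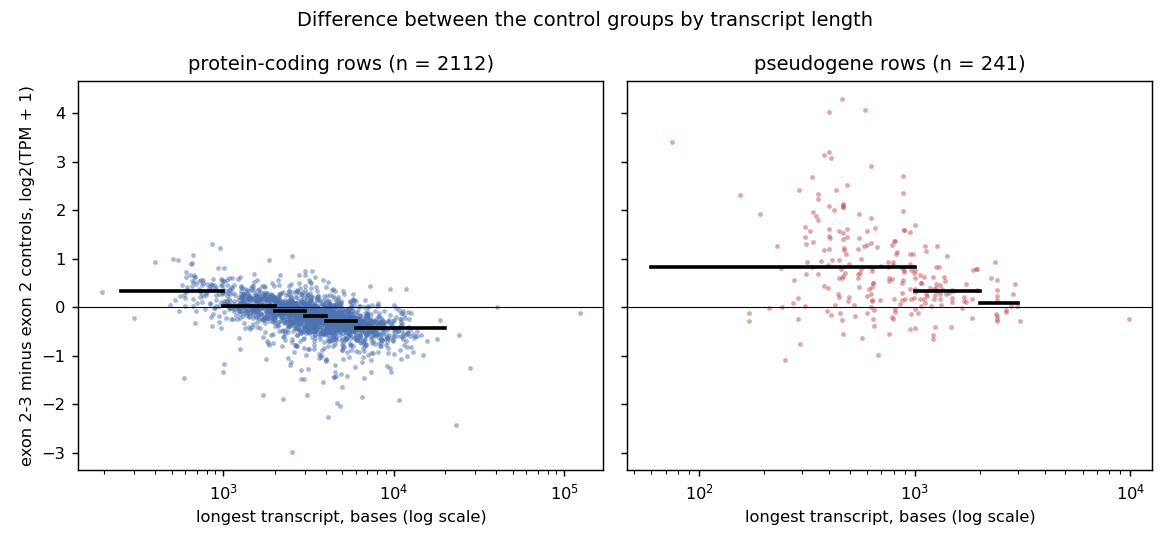
Line difference of the control groups (log2(TPM + 1) scale) against the length of the longest transcript in bases on a log axis, for protein-coding (left, n = 2112) and pseudogene rows (right, n = 241). Black bars are medians of length classes; for coding genes they step down from 0.33 below 1000 bases to -0.42 from 6000 bases on, and for pseudogene rows shorter than 1000 bases the median is 0.82.

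The genes most raised in the exon 2-3 controls were processed copies of abundant genes, above all of ribosomal protein genes. Of 263 pseudogene rows tested, 158 were higher (60.1%, against 14.4% of all genes) and 17 lower, with a median of 0.53. Most of these rows are short, with a median length of 754 bases. Of coding genes shorter than 1000 bases 56.8% were higher, beside 69.8% of pseudogene rows of that length. With the length trend removed, 116 of 241 pseudogene rows with a length were higher and 37 lower (all genes: 18.8% and 18.7%). Their median was then 0.30. Pseudogene rows made up 75 of the 81 genes higher by at least 1. For 240 of them a coding transcript matched, with a median identity of 98.3%. The 68 copies of ribosomal protein genes had a median of 1.30 and 58 of them were higher, and in the cKO libraries their median was 1.21. The 172 copies of other coding genes had a median of 0.37, and the 23 pseudogene rows without a coding match 0.06. Reads from such a copy and from its parent differ at few bases, so the split of reads between them is uncertain. Gm7413, a copy of Rpl23a (chromosome 10, 59871193 to 59871697, GRCm38), measured 50.1, 46.6, 50.3 and 45.9 TPM in the exon 2-3 controls and 1.88, 1.33, 1.27 and 1.56 TPM in the exon 2 controls (log2 difference 4.30, SE 0.22, limma adjusted p 3.57e-10). Rpl19-ps1, a copy of Rpl19 (chromosome 1, 85012086 to 85012787), measured 114, 115, 53.6 and 121 TPM in the exon 2-3 controls and 7.03, 4.03, 4.07 and 4.37 TPM in the exon 2 controls (log2 difference 4.08, SE 0.31, adjusted p 2.95e-08). Gm3699, a copy of the Rpl41 coding sequence (chromosome 10, 43456143 to 43456539), measured 273, 257, 254 and 241 TPM in the exon 2-3 controls and 24.3, 20.8, 20.8 and 27.7 TPM in the exon 2 controls (log2 difference 3.41, SE 0.21, adjusted p 2.92e-09). In all 3 the groups lay far apart, with no overlap.

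The sequences below show how little separates these copies from their parents. Each pair gives a stretch of the copy (GRCm38, read 5′ to 3′ on the strand of the copy, from the GENCODE M21 exons) and the aligned stretch of the parent transcript, and capitals mark the bases at which copy and parent differ. The stretch of Rpl19-ps1 is chr1:85012571-85012630 on the plus strand, and that of Gm7413 is chr10:59871276-59871335 on the minus strand. Over the whole alignment Rpl19-ps1 had 5 mismatched bases against Rpl19 in 591 aligned positions, and Gm7413 had 12 against Rpl23a in 468. Positions with a gap are not among these mismatches. With gaps counted as differences, the identity was 99.2% for Rpl19-ps1 and 96.2% for Gm7413. Counted from base 1 of the copy, with the copy's base first, the changes shown are C485G and T517C in Rpl19-ps1 and T351C, A388G, C404A and C407T in Gm7413. The GENCODE exon of Gm3699 (chr10:43456427-43456501, minus strand) equalled the Rpl41 transcript over all of its 75 bases, so no read lying within that exon can tell the copies apart. The row measured is longer, and the rest of it was not compared.
Rpl19-ps1: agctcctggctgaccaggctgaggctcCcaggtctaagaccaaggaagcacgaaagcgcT
Rpl19: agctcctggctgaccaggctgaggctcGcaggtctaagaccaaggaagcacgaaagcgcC
Gm7413: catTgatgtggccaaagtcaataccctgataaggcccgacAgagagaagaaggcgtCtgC
Rpl23a: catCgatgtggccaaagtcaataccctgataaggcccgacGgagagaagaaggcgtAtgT
Gm3699 and Rpl41: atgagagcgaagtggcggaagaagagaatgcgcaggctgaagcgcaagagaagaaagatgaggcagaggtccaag

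Other strongly raised rows were of the same kind. Gm8942, a copy of Rps24, measured 43.8, 43.3, 46.0 and 43.9 TPM in the exon 2-3 controls and 2.21, 1.57, 2.68 and 0.917 TPM in the exon 2 controls (limma adjusted p 3.42e-10). Rpl27-ps1, Rpl31-ps9, Rpl35a-ps2 and Rpsa-ps2 were higher by 3.08, 3.13, 2.68 and 2.70, each without overlap between the groups and each with an adjusted p of at most 2.03e-07. Fabp3-ps1, a copy of the gene for heart fatty acid binding protein, measured 20.4, 35.3, 36.7 and 35.7 TPM in the exon 2-3 controls and 10.7, 11.4, 0.00269 and 0.0118 TPM in the exon 2 controls. Its exon 2 libraries fell into a pair near 11 TPM and a pair near 0, and its call (log2 difference 3.21, SE 1.10, adjusted p 0.0223) was lost without exon 2-3 replicate 3 (log2 difference 3.13, adjusted p 0.0513), exon 2 replicate 3 (log2 difference 2.61, adjusted p 0.0797) or exon 2 replicate 4 (log2 difference 2.61, adjusted p 0.0743).

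Parents of the copies on the chromosomes analysed moved in different directions. Rpl23a, a protein of the large ribosomal subunit (chromosome 11, 78180935 to 78183584), measured 479, 455, 446 and 459 TPM in the exon 2-3 controls and 1345, 1373, 1199 and 1179 TPM in the exon 2 controls (log2 difference -1.47, SE 0.11, adjusted p 4.04e-08). It was far lower in every exon 2-3 library, while most of the ribosomal protein genes were higher. The 15 copies of Rpl23a on these chromosomes summed to 504 ± 11.2 TPM in the exon 2-3 controls and 195 ± 24.6 TPM in the exon 2 controls (SD, n = 4 each). As a share of gene and copies together they held 52.3% and 13.3%, and gene and copies together came to 963 and 1469 TPM. Rpl23a shares its position with 4 other annotated genes, which adds to the uncertainty. Rpl41 averaged 1848 ± 73.7 TPM in the exon 2-3 controls and 1966 ± 243 TPM in the exon 2 controls and did not pass the test (adjusted p 0.416). Ppia, the abundant prolyl isomerase cyclophilin A (chromosome 11, 6415867 to 6419817), measured 1074, 917, 955 and 975 TPM in the exon 2-3 controls and 2286, 2711, 2287 and 2390.3 TPM in the exon 2 controls (log2 difference -1.30, SE 0.088, adjusted p 8.65e-09). Its 4 copies on these chromosomes summed to 3.08 TPM and 0.294 TPM, little beside the gene itself, and copies elsewhere were not analysed here. Rpl31, Rpl27, Rpl7 and Myl6, of which Rpl31 and Rpl27 were chosen after their values were seen, were higher, as were all of their copies that were tested. The genes differed by 0.57, 0.34, 0.36 and 0.29 (adjusted p 4.07e-06, 2.68e-05, 0.000529 and 0.00304). Their copies summed to 81.7 against 10.6, 44.7 against 9.04, 66.0 against 24.9 and 82.7 against 19.7 TPM (exon 2-3 against exon 2 controls). Rpl19 varied more within the exon 2-3 controls than between the lines: it measured 456, 283, 1387 and 291 TPM in the exon 2-3 controls and 456, 496, 407 and 411 TPM in the exon 2 controls (adjusted p 0.852). Replicate 3, in which Rpl19 was highest, was also the library in which Rpl19-ps1 was lowest among the exon 2-3 controls.

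A pair of rows on chromosome 1 stood for mitochondrial sequence. Gm10925 (chromosome 1, 24613971 to 24614651) equalled the mitochondrial ATP synthase gene mt-Atp6 over 678 of 678 bases and Gm10222 (chromosome 1, 24612404 to 24612700) equalled mt-Nd4l over 294 of 294 bases, so reads of the mitochondrial genes cannot be told from reads of these nuclear copies. Gm10925 was the most abundant row of all and measured 7532, 7500.4, 7123 and 5995 TPM in the exon 2-3 controls and 13397, 14799.7, 13074 and 13955 TPM in the exon 2 controls. It was lower in each exon 2-3 library than in any exon 2 library (log2 difference -0.98, SE 0.086, adjusted p 1.74e-07). The call was lost under quantile normalisation, a step that gives the highest row of every library the same value. Gm10222 measured 3102, 3018, 3073 and 2516 TPM in the exon 2-3 controls and 4736, 4411, 4942 and 5616 TPM in the exon 2 controls (log2 difference -0.75, SE 0.10, adjusted p 1.97e-05). The mitochondrial genome itself was not analysed here.

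Nuclear genes of respiration were higher in the exon 2-3 controls more often than genes at large. The list held genes of respiration and the citric acid cycle, the assembly factors Cox10 and Cox11, and the cytosolic enzymes Mdh1 and Idh1. Of 21 members tested, 12 were higher and 3 lower (all genes: 14.4% and 38.1%). Their median of 0.22 stayed above 0 under the 4 other scalings (0.16 to 0.40). With the length trend removed, 13 were higher and 2 lower (all genes: 18.8% and 18.7%). Uqcr10, a small subunit of complex III (chromosome 11, 4701968 to 4704344), measured 987, 996, 975 and 961 TPM in the exon 2-3 controls and 522, 489, 479 and 488 TPM in the exon 2 controls (log2 difference 0.99, SE 0.054, adjusted p 7.81e-10). All 4 exon 2-3 libraries lay far above all 4 exon 2 libraries. Uqcr11 and Uqcrq, further small subunits of that complex, averaged 676 ± 17.2 against 410.3 ± 14.2 TPM and 182 ± 3.10 against 113 ± 4.40 TPM. Cox5b, a subunit of cytochrome c oxidase, measured 1015, 989.7, 998 and 1054 TPM in the exon 2-3 controls and 661, 739, 639.9 and 690.0 TPM in the exon 2 controls (log2 difference 0.57, SE 0.055, adjusted p 4.49e-07). Mdh1, the cytosolic malate dehydrogenase of the NADH shuttle, averaged 944 ± 23.5 TPM in the exon 2-3 controls and 685 ± 32.1 TPM in the exon 2 controls (log2 difference 0.46, SE 0.058, adjusted p 8.29e-06). Ogdh, the first component of the 2-oxoglutarate dehydrogenase complex, was the exception with the largest size, at a mean of 134 TPM in the exon 2-3 controls and 186 TPM in the exon 2 controls (log2 difference -0.47, SE 0.054, adjusted p 2.98e-06). In the cKO libraries 12 of the 21 were higher and 4 lower.

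Genes of the ribosomes were also higher on balance. Of 15 cytosolic ribosomal protein genes, 8 were higher and 1 lower (all genes: 14.4% and 38.1%), with a median of 0.34. Without the length trend 6 were higher and 4 lower (all genes: 18.8% and 18.7%), and the median was 0.06. Of 14 mitochondrial ribosomal protein genes, 10 were higher and none lower, with a median of 0.39. Without the length trend 9 were higher and 1 lower. Both medians stayed above 0 under the 4 other scalings (0.25 to 0.52 and 0.35 to 0.57). Rpl26, of the large cytosolic subunit, measured 1518, 1484, 1497 and 1439 TPM in the exon 2-3 controls and 1057, 1093, 949.9 and 963 TPM in the exon 2 controls (log2 difference 0.55, SE 0.059, adjusted p 1.65e-06). Rps27a, made as a fusion with ubiquitin, measured 895, 892, 922 and 876 TPM in the exon 2-3 controls and 416, 755, 570.4 and 385 TPM in the exon 2 controls, a wide spread within the exon 2 line (log2 difference 0.81, SE 0.15, adjusted p 0.000435). Mrps14, of the small mitochondrial subunit, measured 30.6, 28.5, 28.2 and 33.0 TPM in the exon 2-3 controls and 17.3, 18.7, 15.97 and 17.9 TPM in the exon 2 controls (log2 difference 0.75, SE 0.082, adjusted p 2.11e-06). Its transcript is 2999 bases long, and after the length trend was removed the difference was 0.89.

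Contractile and calcium-handling genes did not move as one. Of 10 sarcomere genes, 5 were higher in the exon 2-3 controls and 1 lower (all genes: 14.4% and 38.1%), with a median of 0.10 and 4 and 0 after the length trend was removed. Their summed TPM ranged over 17391 to 18981 TPM in the exon 2-3 controls and 12892 to 15156 TPM in the exon 2 controls, without overlap. Between the cKO groups 3 of the 10 were higher and 3 lower, with a median of 0.08. Tnnt2 (chromosome 1, 135836315 to 135852268), whose values are given above, averaged 4854 ± 316 TPM in the exon 2-3 controls and 2934 ± 572 TPM in the exon 2 controls (log2 difference 0.74, SE 0.14, adjusted p 0.0004). Tnni1 (chromosome 1, 135783033 to 135810989) averaged 3058 ± 216 TPM in the exon 2-3 controls and 1957 ± 362 TPM in the exon 2 controls (log2 difference 0.66, SE 0.18, adjusted p 0.00522). Myl4 differed by 0.23 (adjusted p 0.0102) and Tcap, the titin cap of the Z-disc, by 0.27 (adjusted p 0.0107). Myl7, the atrial regulatory light chain, differed by 0.25 (adjusted p 0.0477), a call lost in 6 of the 8 fits that left out 1 control library (adjusted p up to 0.152). Of 13 calcium-handling and conduction genes, none was higher and 8 were lower (all genes: 14.4% and 38.1%), with a median of -0.29. After the length trend was removed 2 were lower. Those were Atp1b1 and Atp1b2, beta subunits of the sodium pump. Atp1b2 (chromosome 11, 69599728 to 69605978) measured 15.7, 18.3, 16.03 and 21.9 TPM in the exon 2-3 controls and 36.3, 37.3, 39.6 and 36.5 TPM in the exon 2 controls (log2 difference -1.03, SE 0.10, adjusted p 6.58e-07), and Atp1b1 averaged 348 ± 45.1 TPM in the exon 2-3 controls and 488 ± 12.5 TPM in the exon 2 controls (log2 difference -0.50, SE 0.094, adjusted p 0.000408).

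Genes of the extracellular matrix and of mesenchymal cells were lower in the exon 2-3 controls. Of 21 matrix genes tested, 18 were lower and 1 higher (all genes: 38.1% and 14.4%), with a median of -0.56 (-0.60 to -0.38 under the 4 other scalings). With the length trend removed, 11 were lower and 2 higher, with a median of -0.26. In bulk tissue, fewer cells of a type and less RNA per cell cannot be told apart. Col1a1, the alpha 1 chain of type I collagen (chromosome 11, 94936224 to 94953042), measured 47.6, 46.8, 43.9 and 37.7 TPM in the exon 2-3 controls and 100.97, 77.5, 145 and 104 TPM in the exon 2 controls (log2 difference -1.23, SE 0.16, adjusted p 1.23e-05). Fn1, fibronectin (chromosome 1, 71585473 to 71653280), measured 334, 381, 355 and 393 TPM in the exon 2-3 controls and 691, 588, 628 and 634 TPM in the exon 2 controls (log2 difference -0.80, SE 0.071, adjusted p 2.04e-07). Neither pair of groups overlapped. Lama2, the laminin alpha 2 chain of the muscle basement membrane, averaged 2.55 ± 0.251 TPM in the exon 2-3 controls and 8.26 ± 2.52 TPM in the exon 2 controls (log2 difference -1.34, SE 0.16, adjusted p 4.67e-06), and it overlaps 3 other genes. Lum, the proteoglycan lumican, measured 6.403, 7.77, 5.597 and 9.39 TPM in the exon 2-3 controls and 13.6, 11.8, 32.0 and 18.3 TPM in the exon 2 controls (log2 difference -1.19, SE 0.26, adjusted p 0.00144). Sparc, an abundant collagen-binding glycoprotein, did not pass the test (708 ± 64.0 TPM in the exon 2-3 controls and 750.5 ± 37.8 TPM in the exon 2 controls, adjusted p 0.302). Dcn, the proteoglycan decorin, was the member that was higher, at 46.0 ± 4.47 TPM in the exon 2-3 controls and 39.2 ± 1.68 TPM in the exon 2 controls (log2 difference 0.22, SE 0.081, adjusted p 0.0319), a call lost in 6 of the 8 fits that left out 1 control library (adjusted p up to 0.0991). Between the cKO groups 9 of the 21 matrix genes were lower and 3 higher; for Fn1 the cKO difference was -0.14, and the control minus the cKO difference was -0.65 (limma interaction term, adjusted p 0.0013).

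Of 10 epicardial and fibroblast genes, some of which are also on the matrix list, 7 were lower and 2 higher (all genes: 38.1% and 14.4%), with a median of -0.55 (6 and 1 after the length trend was removed). Their summed TPM ranged over 1040.0 to 1247 TPM in the exon 2-3 controls and 1315 to 1583 TPM in the exon 2 controls. Between the cKO groups 2 of the 10 were lower and 4 higher, with a median of -0.12, so the direction did not hold there. Prrx1, a homeobox factor of mesenchyme (chromosome 1, 163245119 to 163315145), measured 0.262, 0.799, 0.733 and 2.79 TPM in the exon 2-3 controls and 5.21, 4.64, 8.43 and 6.76 TPM in the exon 2 controls (log2 difference -1.86, SE 0.32, adjusted p 0.00018). It overlaps a gene on each strand. Krt19, a keratin of the epicardial and other epithelia, was higher (90.9 ± 7.42 TPM in the exon 2-3 controls and 76.9 ± 5.65 TPM in the exon 2 controls, log2 difference 0.24, SE 0.086, adjusted p 0.0284), a call lost without exon 2-3 replicate 1 (log2 difference 0.22, adjusted p 0.0718), exon 2-3 replicate 2 (log2 difference 0.20, adjusted p 0.0856), exon 2 replicate 1 (log2 difference 0.24, adjusted p 0.0526) or exon 2 replicate 4 (log2 difference 0.19, adjusted p 0.094). Of 7 endothelial genes, 5 were lower and 1 higher (all genes: 38.1% and 14.4%), with a median of -0.51 (4 and 1 after the length trend was removed), while their summed TPM overlapped (269 to 351 TPM in the exon 2-3 controls and 309 to 333 TPM in the exon 2 controls). Between the cKO groups 2 of the 7 were lower and 1 higher, with a median of 0.01. Flt4 and Nrp2, receptors for VEGF-C, averaged 8.29 ± 0.847 against 13.6 ± 0.529 TPM and 4.94 ± 0.671 against 9.06 ± 0.431 TPM (adjusted p 4.36e-06 and 1.64e-05). Ptprb, the endothelial phosphatase VE-PTP, measured 3.46, 6.02, 3.97 and 7.72 TPM in the exon 2-3 controls and 11.1, 9.51, 12.5 and 12.1 TPM in the exon 2 controls (log2 difference -1.01, SE 0.22, adjusted p 0.00131). Icam2, an endothelial adhesion protein with a short transcript of 1282 bases, was higher, at 62.7 ± 6.67 TPM in the exon 2-3 controls and 47.1 ± 2.13 TPM in the exon 2 controls (log2 difference 0.40, SE 0.082, adjusted p 0.000725). Flt4, Nrp2 and Ptprb have transcripts of 6255, 6723 and 11911 bases.

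Genes of growth signalling between endocardium, epicardium and muscle were lower on balance in the exon 2-3 controls. The list held ligands, receptors, binding proteins of insulin-like growth factors and the adaptor Irs1. Of 19 tested, 15 were lower and none higher (all genes: 38.1% and 14.4%), with a median of -0.55 (-0.59 to -0.37 under the 4 other scalings) and 10 lower after the length trend was removed. The cKO groups differed less often, with 9 of the 19 lower and 1 higher and a median of -0.32. Among the ligands, Igf1, the insulin-like growth factor, measured 9.79, 13.3, 8.97 and 14.5 TPM in the exon 2-3 controls and 22.6, 19.4, 30.2 and 23.3 TPM in the exon 2 controls (log2 difference -0.99, SE 0.16, adjusted p 0.000122). Tgfb2, a ligand that acts in cushion and epicardial mesenchyme, averaged 20.3 ± 3.48 TPM in the exon 2-3 controls and 36.0 ± 2.43 TPM in the exon 2 controls (log2 difference -0.81, SE 0.13, adjusted p 0.000107). Among the receptors, Bmpr2, the type II receptor for BMP ligands (chromosome 1, 59764279 to 59878081), measured 16.9, 18.4, 15.5 and 16.4 TPM in the exon 2-3 controls and 30.0, 28.8, 38.1 and 34.0 TPM in the exon 2 controls (log2 difference -0.91, SE 0.090, adjusted p 6.49e-07). Erbb4, the neuregulin receptor of cardiomyocytes (chromosome 1, 68031884 to 69108576), measured 8.86, 8.93, 8.25 and 10.3 TPM in the exon 2-3 controls and 16.6, 14.3, 18.7 and 17.2 TPM in the exon 2 controls (log2 difference -0.81, SE 0.093, adjusted p 3.4e-06). Igfbp5, a secreted protein that binds insulin-like growth factors (chromosome 1, 72858065 to 72874865), measured 235, 237, 198 and 279.8 TPM in the exon 2-3 controls and 461, 383, 490.5 and 434 TPM in the exon 2 controls (log2 difference -0.90, SE 0.11, adjusted p 6.63e-06). All 4 exon 2-3 libraries were lower than every exon 2 library for each of these 5 genes. The transcripts of Bmpr2 and Erbb4 are 12899 and 12037 bases long, and after the length trend was removed their differences were -0.39 and -0.30.

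**Figure D4:**
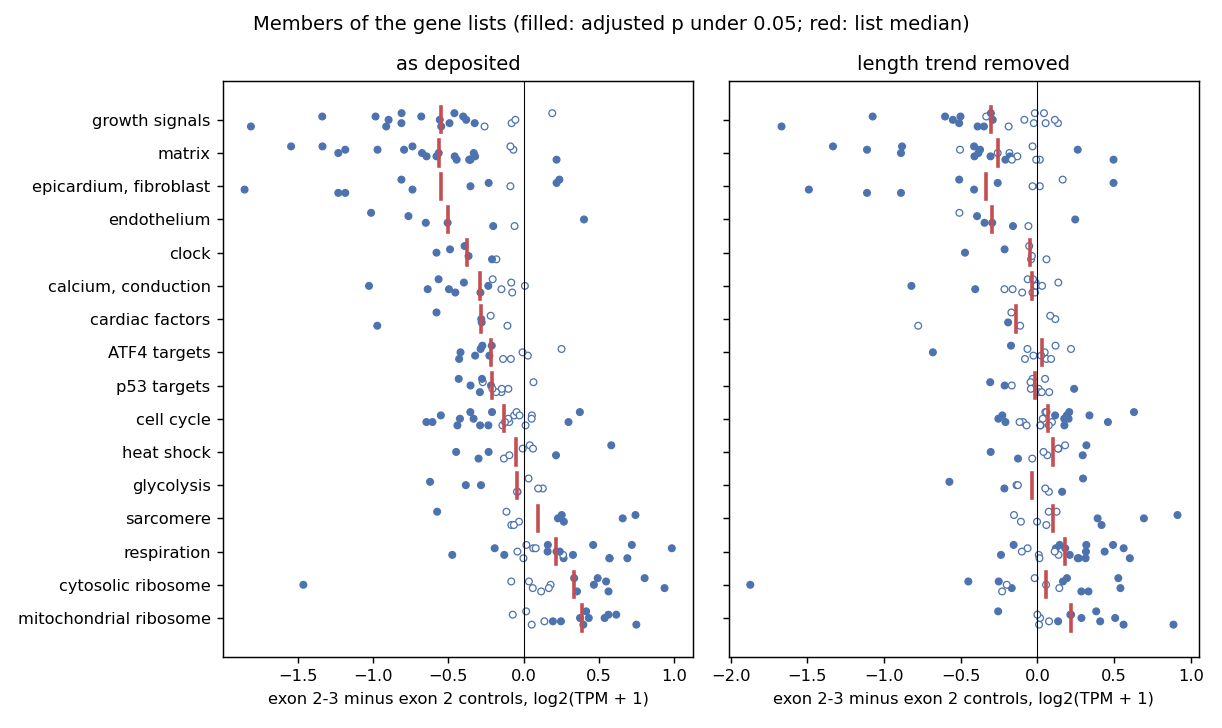
Line difference of the control groups (log2(TPM + 1) scale, x axis) for each tested member of 16 gene lists (rows), as deposited (left) and with each library's length trend removed (right). Filled points passed the test, red bars are list medians; the medians of growth signals and matrix genes lie left of 0 in both panels and those of respiration and mitochondrial ribosome genes right of 0, with single members on the other side, while the medians of the clock and calcium lists lie close to 0 on the right.

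Of 5 atrial and atrioventricular canal genes tested, 3 were lower in the exon 2-3 controls and 2 higher, the light chains Myl4 and Myl7 above (all genes: 38.1% lower and 14.4% higher). Length-corrected, 1 was lower and 1 higher. Rspo3 and Tbx2 are from this list, and Wnt9b, Col9a1 and Meox1 are from the growth-signal, matrix and body-axis lists and were set beside them after their values were seen. Rspo3, a Wnt-enhancing ligand (chromosome 10, 29453106 to 29535867), measured 1.08, 5.23, 3.85 and 9.30 TPM in the exon 2-3 controls and 17.1, 14.001, 18.6 and 17.7 TPM in the exon 2 controls (log2 difference -1.81, SE 0.50, adjusted p 0.00666). Wnt9b, a Wnt ligand of cushion endocardium, measured 0.0375, 1.16, 0.234 and 2.03 TPM in the exon 2-3 controls and 2.65, 3.88, 3.00 and 3.82 TPM in the exon 2 controls (log2 difference -1.34, SE 0.39, adjusted p 0.00909). Tbx2, a repressor of chamber muscle genes in the atrioventricular canal, measured 2.37, 5.75, 3.92 and 10.7 TPM in the exon 2-3 controls and 12.3, 10.6, 10.2 and 10.3 TPM in the exon 2 controls (log2 difference -0.97, SE 0.34, adjusted p 0.023). In all 3, replicate 1 of the exon 2-3 line was the lowest library and replicate 4 the highest of that line. Col9a1, a collagen of cartilage and cushions, measured 1.58, 8.05, 1.45 and 11.8 TPM in the exon 2-3 controls and 13.7, 11.8, 17.2 and 14.5 TPM in the exon 2 controls (log2 difference -1.55, SE 0.50, adjusted p 0.0164). Meox1, a homeobox factor of somites and other mesoderm, measured 1.39, 3.95, 2.22 and 5.25 TPM in the exon 2-3 controls and 8.86, 8.01, 24.9 and 18.8 TPM in the exon 2 controls (log2 difference -1.89, SE 0.48, adjusted p 0.0035). The call for Tbx2 was lost without exon 2-3 replicate 1 (log2 difference -0.70, adjusted p 0.0876), exon 2-3 replicate 3 (log2 difference -0.88, adjusted p 0.0669) or exon 2 replicate 1 (log2 difference -0.92, adjusted p 0.0542). The call for Col9a1 was lost without exon 2-3 replicate 1 (log2 difference -1.21, adjusted p 0.0614) or exon 2-3 replicate 3 (log2 difference -1.18, adjusted p 0.0687). How much canal tissue each dissection held was not tested.

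**Figure D5:**
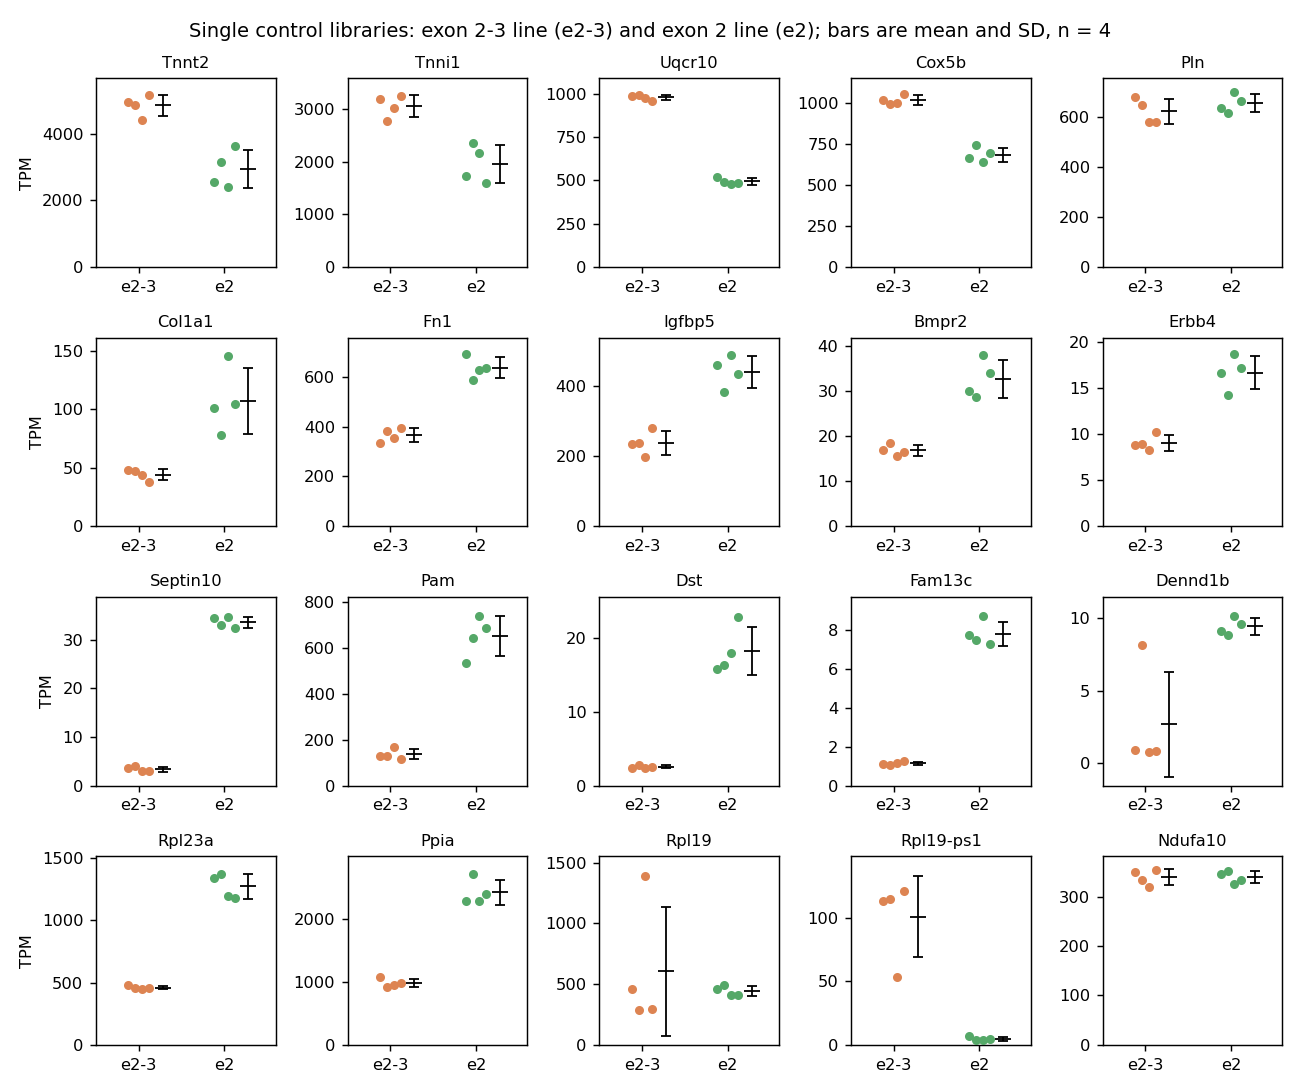
TPM of 20 genes (linear axes from 0, except for Dennd1b, whose SD bar passes below 0) in each control library of the exon 2-3 line (e2-3, orange) and the exon 2 line (e2, green), with mean and SD beside them (n = 4). Tnnt2, Tnni1, Uqcr10, Cox5b and the copy Rpl19-ps1 lie higher in the exon 2-3 controls. Col1a1, Fn1, Igfbp5, Bmpr2, Erbb4, Septin10, Pam, Dst, Fam13c, Rpl23a and Ppia lie lower. Pln and Ndufa10 overlap, and in Dennd1b and Rpl19 a single exon 2-3 library stands apart.

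Among coding genes, 47 were lower in the exon 2-3 controls by at least 1 and 3 were higher; the genes of this paragraph that the naming rule did not reach were chosen after their values were seen. Septin10, a cytoskeletal GTPase (chromosome 10, 59141624 to 59221500), had the largest difference of any coding gene tested. It measured 3.64, 3.97, 2.93 and 2.91 TPM in the exon 2-3 controls and 34.4, 33.0, 34.7 and 32.4 TPM in the exon 2 controls (log2 difference -2.995, SE 0.10, adjusted p 3.93e-12), and the cKO libraries differed by -2.98. Pam, the enzyme that amidates peptide hormones and is abundant in heart (chromosome 1, 97821091 to 98095853), measured 130.4, 127, 167 and 117 TPM in the exon 2-3 controls and 532, 642, 738 and 686 TPM in the exon 2 controls (log2 difference -2.26, SE 0.11, adjusted p 3.42e-10). Dst, the giant cytolinker dystonin (chromosome 1, 33907888 to 34308662), measured 2.45, 2.85, 2.37 and 2.50 TPM in the exon 2-3 controls and 15.8, 16.3, 18.1 and 22.98 TPM in the exon 2 controls (log2 difference -2.43, SE 0.19, adjusted p 4.61e-08). For these 3 the groups were separated by several times the spread within either, and the difference remained large after the length trend was removed (-2.91, -2.02 and -1.79). Fam13c averaged 1.15 ± 0.0773 TPM in the exon 2-3 controls and 7.78 ± 0.634 TPM in the exon 2 controls (log2 difference -2.03, SE 0.090, adjusted p 1.6e-10). Tnip1, an inhibitor of NF-kappaB signalling, averaged 7.70 ± 0.759 TPM in the exon 2-3 controls and 23.3 ± 1.26 TPM in the exon 2 controls (log2 difference -1.49, SE 0.11, adjusted p 2.68e-08), and the folate carrier Slc19a1 averaged 1.91 ± 0.346 TPM in the exon 2-3 controls and 7.06 ± 0.534 TPM in the exon 2 controls (log2 difference -1.48, SE 0.13, adjusted p 2.05e-07). Dennd1b, a Rab exchange factor, measured 0.933, 8.12, 0.81 and 0.8292 TPM in the exon 2-3 controls and 9.11, 8.78, 10.1 and 9.54 TPM in the exon 2 controls. Replicate 2 of the exon 2-3 line lay with the exon 2 libraries and the other 3 far below (log2 difference -1.91, SE 0.45, adjusted p 0.00241). Septin10, Pam, Dst, Fam13c, Dennd1b and Tnip1 overlap other annotated genes, so part of their reads may belong to those.

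The 3 coding genes higher by at least 1 were Tmem256, Snrpe and Nme7. Tmem256, a small membrane protein (chromosome 11, 69838525 to 69839558), measured 175, 171, 177 and 181 TPM in the exon 2-3 controls and 93.5, 64.3, 83.1 and 62.0 TPM in the exon 2 controls (log2 difference 1.23, SE 0.10, adjusted p 7.46e-08). Snrpe, a core protein of the splicing snRNPs (chromosome 1, 133603871 to 133610280), measured 320.4, 312, 325 and 289 TPM in the exon 2-3 controls and 169, 163, 124 and 137 TPM in the exon 2 controls (log2 difference 1.08, SE 0.087, adjusted p 6.31e-08). Nme7, a kinase-family protein of the gamma-tubulin ring complex, averaged 27.2 ± 1.62 TPM in the exon 2-3 controls and 12.6 ± 0.999 TPM in the exon 2 controls (log2 difference 1.06, SE 0.37, adjusted p 0.0247), and its call was lost without exon 2 replicate 4 (log2 difference 1.01, adjusted p 0.0551). Its SE holds the spread of the cKO libraries, and in the fit on the 8 control libraries alone the adjusted p was 1.99e-06. The microRNA row Mir12181 lay furthest below 0 of the rows that are neither coding genes nor pseudogenes. It measured 5.75, 12.7, 11.7 and 12.9 TPM in the exon 2-3 controls and 42.6, 49.4, 57.4 and 59.8 TPM in the exon 2 controls (log2 difference -2.23, SE 0.20, adjusted p 2.54e-07). It lies on the same strand within Coro6, a coronin of muscle and nerve that averaged 54.4 ± 4.21 TPM in the exon 2-3 controls and 63.7 ± 3.87 TPM in the exon 2 controls (adjusted p 0.055), so reads of the host gene can be counted for it and no microRNA was measured as such. Its annotated mature sequences (RefSeq, GRCm38; seed bases 2 to 8 in capitals) are shown to identify the row, mmu-miR-12181-5p at chr11:77467518-77467539 and mmu-miR-12181-3p at chr11:77467553-77467573, both on the plus strand.
mmu-miR-12181-5p: uUGAGGGUgcauaaggacugga
mmu-miR-12181-3p: uCCAGGCCucuugcucucuca

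Cell cycle genes differed about as often as genes at large (54.5% against 52.6%). Of 22 tested, 2 were higher in the exon 2-3 line and 10 lower (all genes: 14.4% and 38.1%), with a median of -0.13 beside -0.14 over all genes. The balance turned with the length trend removed, to 9 higher and 3 lower with a median of 0.07 (centring on the library median also gave a median above 0, 0.05). Cdk1, the kinase that drives mitosis (chromosome 10, 69335146 to 69352912), measured 69.1, 68.4, 66.2 and 69.0 TPM in the exon 2-3 controls and 54.4, 51.6, 55.1 and 48.6 TPM in the exon 2 controls (log2 difference 0.37, SE 0.050, adjusted p 1.5e-05). Cenpf, a kinetochore protein with a transcript of 11130 bases, averaged 22.98 ± 1.46 TPM in the exon 2-3 controls and 35.7 ± 4.55 TPM in the exon 2 controls (log2 difference -0.61, SE 0.090, adjusted p 4.51e-05), and Kif14, a mitotic kinesin with a transcript of 8943 bases, averaged 4.61 ± 0.0759 TPM in the exon 2-3 controls and 7.85 ± 1.31 TPM in the exon 2 controls (log2 difference -0.65, SE 0.10, adjusted p 4.34e-05). Neither group overlapped the other for these 3 genes. After the length trend was removed Cdk1 differed by 0.63, Cenpf by -0.12 and Kif14 by -0.21.

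Of 12 target genes of ATF4 and the integrated stress response, none was higher between the controls and 7 were lower (all genes: 38.1%), with a median of -0.22. Without the length trend 2 were lower and the median was 0.03. Shmt2, the mitochondrial serine hydroxymethyltransferase, measured 73.6, 70.8, 59.8 and 81.2 TPM in the exon 2-3 controls and 70.4, 71.3, 75.8 and 68.0 TPM in the exon 2 controls and did not pass the test (log2 difference -0.01, SE 0.084, adjusted p 0.95). Aldh1l2, the mitochondrial formyltetrahydrofolate dehydrogenase, averaged 17.7 ± 0.99 TPM in the exon 2-3 controls and 24.2 ± 1.89 TPM in the exon 2 controls (log2 difference -0.43, SE 0.065, adjusted p 5.79e-05). The list of p53 targets also held Trp53, the gene of p53 itself, and its regulator Mdm4. Of its 12 genes, none was higher and 5 were lower (all genes: 14.4% and 38.1%), with a median of -0.21 and 1 higher and 2 lower without the length trend. Phlda3, a p53-induced inhibitor of Akt, averaged 39.4 ± 4.43 TPM in the exon 2-3 controls and 37.5 ± 2.49 TPM in the exon 2 controls (adjusted p 0.514). Of 6 circadian clock genes, 5 were lower and none higher (all genes: 38.1% and 14.4%), with a median of -0.38. Length-corrected, 2 were lower. Per1, a repressor of the clock, measured 8.62, 9.20, 8.10 and 9.22 TPM in the exon 2-3 controls and 11.4, 11.2, 14.7 and 13.98 TPM in the exon 2 controls (log2 difference -0.49, SE 0.10, adjusted p 0.000673), and Nr1d1, the receptor REV-ERBalpha, measured 4.39, 4.06, 4.07 and 5.84 TPM in the exon 2-3 controls and 6.90, 6.32, 8.57 and 7.52 TPM in the exon 2 controls (log2 difference -0.58, SE 0.10, adjusted p 0.000234). The time of day of dissection is not given in the labels.

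The remaining lists are to be read against 14.4% of all genes higher and 38.1% lower, and against 18.8% and 18.7% after the length trend was removed. The shares called of the glycolysis (37.5%) and interferon (35.7%) lists were below the 52.6% over all genes. Of 6 cardiac transcription factors, 4 were lower and none higher, and 1 was lower after the length trend was removed. Prox1, needed for myofibril assembly, was among the 4, at 15.8 ± 1.70 TPM in the exon 2-3 controls and 24.2 ± 3.36 TPM in the exon 2 controls (log2 difference -0.58, SE 0.10, adjusted p 0.000132). After the length trend was removed its difference was -0.17 and did not pass the test (adjusted p 0.0572). Of 8 glycolysis genes, 3 were lower and none higher, and 2 were lower and 2 higher after the length trend was removed. Of 10 heat shock and chaperonin genes, 2 were higher and 3 lower, Hspe1, the mitochondrial co-chaperonin, being highest at 375 ± 9.72 TPM in the exon 2-3 controls and 252 ± 39.1 TPM in the exon 2 controls (log2 difference 0.58, SE 0.083, adjusted p 3.08e-05). Of 14 interferon-response genes, 5 were lower and none higher, and 1 was lower after the length trend was removed. Of 6 immediate-early genes, 1 was higher and none lower. Of 6 leukocyte genes, 1 was higher (Lyz2, adjusted p 0.0484, lost in 7 of the 8 fits that left out 1 control library, adjusted p up to 0.11) and 1 lower (Cd68, adjusted p 0.00267). Of 6 genes that change with embryonic stage, the globins above did not pass the test, and Hmga2 and Igf2bp1, growth-promoting genes of the fetal RNA programme, were lower (79.9 ± 10.3 against 101.2 ± 8.13 TPM, adjusted p 0.00614, and 36.4 ± 3.08 against 48.6 ± 2.30 TPM, adjusted p 0.000132). After the length trend was removed the difference of Igf2bp1 was 0.01 and that of Hmga2 -0.13. The histone H3.3 gene H3f3a measured 505, 502, 467 and 498 TPM in the exon 2-3 controls and 638, 715, 676 and 664 TPM in the exon 2 controls (log2 difference -0.45, SE 0.064, adjusted p 3e-05).

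A few genes stood apart in single libraries; they were chosen after their values were seen, by their spread within a control group. Acyp2, a small acylphosphatase, measured 17.2, 17.7, 20.3 and 17.2 TPM in the exon 2-3 controls and 13.2, 11.7, 0.402 and 12.9 TPM in the exon 2 controls, with replicate 3 of the exon 2 line near 0. Erlec1, a lectin of the endoplasmic reticulum, measured 28.9, 24.4, 4.07 and 29.6 TPM in the exon 2-3 controls and 29.1, 30.9, 28.3 and 25.4 TPM in the exon 2 controls, with replicate 3 of the exon 2-3 line far below the rest. Cox20, an assembly factor of cytochrome c oxidase, measured 115, 124, 38.8 and 118 TPM in the exon 2-3 controls and 54.3, 69.0, 63.6 and 64.2 TPM in the exon 2 controls, again with replicate 3 of the exon 2-3 line lowest. Rps12, a small-subunit ribosomal protein, measured 526, 527, 553 and 553 TPM in the exon 2-3 controls and 400.4, 832, 396 and 403 TPM in the exon 2 controls, with replicate 2 of the exon 2 line highest. None of these libraries stood apart in its correlation with the others of its group, which was at least 0.987 throughout.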

How the data were processed

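RNA-seq values of 8 control libraries (4 per line) and, for a second reading, 8 cKO libraries were used. The authors deposited TPM values; the program, annotation and scaling behind them are not given in the sources used here. The submitters' processing notes name GRCm38, Trim Galore 0.6.7, HISAT2 2.2.1 and StringTie 2.2.1 among the builds and tools. Row coordinates equalled RefSeq GRCm38.p6 for 5919 of 5921 rows. The table was held in part, and its last line, broken off, was left out. Per the labels' protocols 30000000 to 70000000 paired-end reads were obtained per sample. The depth behind each TPM value is unknown, since TPM keeps no depth, and no counting interval is given. The labels disagree on library preparation (stranded mRNA libraries or depletion of ribosomal RNA), and they do not say whether strand was used in counting. The extraction text names cultured cortical neurons, while tissue labels name ventricle.

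The scale of analysis was log2(TPM + 1), on which differences of low genes are understated. Rows with a mean of at least 1 TPM over the 16 libraries (2620) were fitted with limma 3.58.1 in R 4.3.3 as group means of all 4 groups (lmFit, eBayes with an intensity trend), two-sided, with Benjamini-Hochberg adjustment over those rows and a threshold of 0.05. The procedure was tested on simulated data. Pseudogene rows were matched to GENCODE M21 coding transcripts with blastn 2.17.0 (E-value at most 1e-10, at least 50% of the row covered). The members and gene lists were chosen with earlier results of these data known. Genes were named by rule: the 10 highest and 10 lowest differences without overlap at a mean of at least 5 TPM in the higher group, the 20 highest levels, the 10 smallest spreads at a mean of at least 10 TPM, and per list the 6 most abundant members and called members differing by at least 0.6. Some rows that the rule reached are not reported here. Alternatives were a pseudocount of 0.1, other filters, scalings, weights and thresholds, a replicate block and leaving out each library. The length correction (lowess on log2 length, span 0.5), the common-sum rescaling (without hemoglobin genes, Gm10222 and Gm10925) and leaving out pseudogene rows were chosen after seeing the data. Of 102 genes covered by that rule and named, 45 overlap another annotated gene, so their values are uncertain. Python 3.11.15 with pandas 2.3.3 handled the tables, and matplotlib 3.10.9 drew the figures.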

Additional observations from a re-analysis of the deposited data

Results flagged for a closer look

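Single libraries stood apart from the other 3 of their control group in 21 of 226 groups of values checked (113 genes, each in both control groups), where the gap to the nearest library exceeded Dixon's 95% critical value for 4 samples. Chance flags about 1 in 20 groups, a rate that this count cannot be set against, since some of the genes were chosen for their spread within a control group. In replicate 1 of the exon 2 controls Tbx2 at 12.3 TPM (others 10.2 to 10.6), Rpl19-ps1 at 7.03 TPM (others 4.03 to 4.37), Rpl27-ps1 at 2.40 TPM (others 1.12 to 1.33) and Rpl31-ps9 at 10.7 TPM (others 6.401 to 7.11) stood apart from the other 3 libraries. Replicate 2 of the exon 2 controls stood apart for Rps12 at 832 TPM (others 396 to 403). In replicate 3 of the exon 2 controls Tnip1 at 21.5 TPM (others 23.8 to 24.2), Dcn at 41.7 TPM (others 38.02 to 38.6) and Acyp2 at 0.402 TPM (others 11.7 to 13.2) stood apart from the other 3 libraries. Replicate 4 of the exon 2 controls stood apart for Dlg4 at 15.8 TPM (others 10.1 to 11.01). In replicate 1 of the exon 2-3 controls Fabp3-ps1 at 20.4 TPM (others 35.3 to 36.7) and Mir12181 at 5.75 TPM (others 11.7 to 12.9) stood apart from the other 3 libraries. Replicate 2 of the exon 2-3 controls stood apart for Dennd1b at 8.12 TPM (others 0.81 to 0.933) and Hba-x at 1789 TPM (others 1353 to 1422). In replicate 3 of the exon 2-3 controls Rpl19 at 1387 TPM (others 283 to 456), Rpl19-ps1 at 53.6 TPM (others 114 to 121), Nme7 at 24.8 TPM (others 27.9 to 28.3), Igf2bp1 at 31.8 TPM (others 37.2 to 38.2), Cox20 at 38.8 TPM (others 115 to 124) and Acyp2 at 20.3 TPM (others 17.2 to 17.7) stood apart from the other 3 libraries. Replicate 4 of the exon 2-3 controls stood apart for Gm10222 at 2516 TPM (others 3018 to 3102) and Rpl31 at 777 TPM (others 663 to 665).

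The line difference between the control groups departed from that between the cKO groups for 9 genes named in the text, out of 62 over all genes tested. The values are control minus cKO line difference on the log2 scale, which is the limma interaction term and uses all 16 libraries. It was -1.46 (SE 0.10, adjusted p 1.82e-07) for the p53 target Ccng1 and -1.12 (SE 0.11, adjusted p 2.3e-05) for the p53 target Phlda3. For the ATF4 targets it was 1.33 (SE 0.092, adjusted p 1.82e-07) in Aldh1l2 and 0.83 (SE 0.12, adjusted p 0.000613) in Shmt2. The ventricular factor Hand1 had 0.52 (SE 0.13, adjusted p 0.0481) and the mitotic kinase Cdk1 0.40 (SE 0.070, adjusted p 0.00437). Among matrix and epicardial genes it was -0.65 (SE 0.10, adjusted p 0.00131) for Fn1, -0.64 (SE 0.11, adjusted p 0.00505) for Dcn and -0.56 (SE 0.12, adjusted p 0.0215) for Krt19.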

How the results depend on the processing

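Depth was unknown and the strand used in counting is not stated, so low genes, overlapping genes and copies limit these values. Of 2620 genes, 1377 were called; the count lay between 1190 and 1370 when 1 control library was left out, and genes differing by at least 1 lay between 130 and 147. Genes without overlap lay between 1243 and 1400, genes whose 95% interval lay within 0.5 of 0 between 1252 and 1432, the median difference between -0.163 and -0.100, and the calls between the cKO groups between 1044 and 1172 when 1 cKO library was left out. Leaving out a library can only keep or raise the count without overlap (1192 with all libraries), so its range does not measure stability. Without a filter on low values 3963 of 5564 genes lay within 0.5 and the median was -0.029. At a minimum of 5 TPM, 85 genes differed by at least 1. The median over all genes was -0.051 after quantile normalisation, 0.041 after median centring and -0.0070 after the length trend was removed. With a bound of 0.25 in place of 0.5, 334 genes lay within it. Leaving out pseudogene rows left 59 genes that differed by at least 1, of which 6 were higher.

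Replicate numbers were not used to pair libraries: the deviations of same-numbered libraries of the lines correlated with r of -0.224 to -0.0247 over 4 pairs. With the replicate number as a block, 1305 genes were called between the controls, 135 differed by at least 1, 1341 lay within 0.5 and 1162 were called between the cKO groups. Over the named genes, 4266 combinations of gene and setting kept their call or lack of one, 203 lost the call, 89 gained it and 27 turned the direction. A turn was counted only where the gene was called in the main fit or in that setting. Genes called in neither stand among the 4266 whatever their direction. Some of them changed sign when 1 library was left out, such as Hba-a1 (0.092 in the main fit, -0.089 at the lowest).

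Among genes called in the main fit or in the setting itself, directions turned in 3 settings, and the cause was not tested. After median centring the log2 differences were Cfap36 0.17, Mcm3 0.12, Mcm6 0.13, Ndufa10 0.18, Pfkl 0.14, Sdhc 0.14 and Shmt2 0.17. After quantile normalisation Atp5b was at -0.028. After the length trend was removed they were Col5a2 0.016, Cox11 -0.15, Eprs 0.12, H2bu2 -0.033, Hspa4 0.040, Igf2bp1 0.012, Mcm3 0.12, Mcm6 0.21, Mdm4 0.24, Meis1 0.12, Mif -0.22, Myl7 -0.15, Pfkl 0.16, Pgam2 -0.22, Rps26 -0.25, Timeless 0.059, Top2a 0.074, Trdn 0.030 and Xpot 0.024.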

Other observations

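Genes that differed by at least 1 were not gathered on one chromosome. They made up 6.37% of the genes tested on chromosome 1, 4.77% on chromosome 10 and 4.39% on chromosome 11. Of 1622 rows with a mean of at least 10 TPM over the control libraries, the small nucleolar RNA row Snord47 had the widest spread within the control groups. It measured 0, 21.4, 12.9 and 20.2 TPM in the exon 2-3 controls and 11.3, 0.762, 16.4 and 0.4 TPM in the exon 2 controls, spread over the whole range within both lines.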
